A study of Mus musculus with 52 samples.

Results

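The 10 genes described here carry the insulin signal from the cell surface to the glucose transporter of skeletal muscle: Insr, Irs1, Irs2, Akt1, Akt2, Pik3r1, Pik3ip1, Slc2a4, Tbc1d1 and Tbc1d4. They are defined by gene symbol, as 10 of the 55487 genes counted, and all 10 passed the filter on low counts that left 16668 genes for testing. RNA was measured by total RNA sequencing in gastrocnemius muscle, a calf muscle of mostly fast fibres, from male C57BL/6 mice aged 22 to 24 months. The 52 libraries form 13 groups of 4. In the group codes HU stands for hindlimb unloading, in which the hind legs bear no weight, RL7 and RL14 for mice put back on their feet (reloaded) for 7 or 14 d after unloading, and AMB for ambulatory mice that were never unloaded. The letters after the code give the drinking water: M with metformin (a diabetes drug that lowers blood glucose), L with leucine (an amino acid that stimulates protein synthesis), ML with both, and W plain. HU, RL7 and RL14 each have all 4 drinks, and the ambulatory mice drank plain water, so no ambulatory group received metformin or leucine. How long the mice were unloaded and the doses were not given in the labels, and these are tissue RNA levels: no insulin challenge, protein or phosphorylation was measured.

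Insulin binds its receptor, a tyrosine kinase encoded by Insr, which phosphorylates the adaptor proteins IRS1 and IRS2. The adaptors recruit phosphoinositide 3-kinase (PI3K) through its regulatory subunit p85 alpha, the product of Pik3r1, and the lipid that PI3K makes activates the kinases AKT1 and AKT2. In muscle AKT phosphorylates TBC1D4 and TBC1D1, proteins that switch off Rab GTPases and so hold the glucose transporter GLUT4, the product of Slc2a4, inside the cell until the signal arrives; contraction acts on TBC1D1 as well, through the energy sensor AMPK. Pik3ip1 encodes a membrane protein that inhibits PI3K.

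Positions are given on GRCm38 from the GENCODE vM21 annotation, in which all 10 are protein-coding. On the minus strand lie Insr (chr8:3122061-3279617), Irs1 (chr1:82233101-82291416), Irs2 (chr8:10984681-11008458), Akt1 (chr12:112653821-112674884), Pik3r1 (chr13:101680563-101768217), Slc2a4 (chr11:69942539-69948188) and Tbc1d4 (chr14:101442360-101609191). On the plus strand lie Akt2 (chr7:27591552-27640826), Pik3ip1 (chr11:3330401-3342971) and Tbc1d1 (chr5:64156305-64351486). Exons of 3 members overlap a gene on the opposite strand: 2822 bases of Irs1 with Gm9747, 162 bases of Irs2 with 9530052E02Rik and 91 bases of Pik3ip1 with Gm12592. These partners had few counts, with medians of 0, 6.5 and 13.5 per library, against medians of 1858.5, 764 and 366 for Irs1, Irs2 and Pik3ip1. The sources used here do not say whether counting used the strand, and reads in the overlapping bases cannot be assigned with certainty.

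Upstream sequence is shown for the members whose levels moved together (Pik3r1 and Tbc1d1) or against them (Irs1), and for Irs2, the other adaptor. Each window holds the 250 bases before a RefSeq transcription start on GRCm38.p6, read 5′ to 3′ on the gene's own strand, and none of its bases is exonic in GENCODE vM21. Capitals mark matches to CAAAACA (the core of the insulin response element) and CCAAT, on either strand, so that TGTTTTG and ATTGG are matches on the opposite one.
Pik3r1, start 1, chr13:101768218-101768467, minus strand: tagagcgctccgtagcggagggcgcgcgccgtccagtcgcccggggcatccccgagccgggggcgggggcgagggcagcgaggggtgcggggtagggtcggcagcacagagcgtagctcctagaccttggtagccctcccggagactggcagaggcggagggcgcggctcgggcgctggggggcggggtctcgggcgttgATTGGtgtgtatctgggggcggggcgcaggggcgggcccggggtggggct
Tbc1d1, start 2, chr5:64230107-64230356, plus strand: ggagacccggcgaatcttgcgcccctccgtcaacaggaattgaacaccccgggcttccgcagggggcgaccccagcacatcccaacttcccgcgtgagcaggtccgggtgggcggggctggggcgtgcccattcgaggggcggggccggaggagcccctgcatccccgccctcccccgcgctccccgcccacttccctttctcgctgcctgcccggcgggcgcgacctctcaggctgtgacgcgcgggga
Irs1, start 1, chr1:82291440-82291689, minus strand: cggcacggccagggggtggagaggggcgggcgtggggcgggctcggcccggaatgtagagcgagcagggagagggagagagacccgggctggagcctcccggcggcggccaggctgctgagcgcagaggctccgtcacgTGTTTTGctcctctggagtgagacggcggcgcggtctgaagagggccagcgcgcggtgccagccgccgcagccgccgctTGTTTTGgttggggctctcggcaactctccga
Irs2, start 1, chr8:11008930-11009179, minus strand: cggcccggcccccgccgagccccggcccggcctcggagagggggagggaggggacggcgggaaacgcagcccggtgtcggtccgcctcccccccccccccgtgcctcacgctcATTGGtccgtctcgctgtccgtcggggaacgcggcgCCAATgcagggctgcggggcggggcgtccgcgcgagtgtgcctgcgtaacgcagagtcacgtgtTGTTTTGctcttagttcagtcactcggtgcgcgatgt
The Irs1 and Irs2 starts lie 23 and 471 bases upstream of the gene's 5′ end in GENCODE, and the Tbc1d1 start lies inside the annotated gene. CAAAACA occurred 2 times in the Irs1 window and 1 time in the Irs2 window, against 5.56% of all 32851 RefSeq windows of this length. Neither the Pik3r1 nor the Tbc1d1 window holds it, and no other of the 14 member windows at hand does. The windows shown were picked, so these counts are no test against that share. CCAAT occurred in the Pik3r1 and Irs2 windows, a motif held by 33.8% of all windows. The FoxO motif GTAAACA (3.17% of windows) and the MEF2 motif (3.2%) were in none of these 4 windows, and 1 GTAAACA stood before an Akt1 start. GGGCGG, the GC box (32.7% of windows), was in all 4; it is not capitalised, and the motifs did not overlap one another. RefSeq starts were at hand for 8 of the 10 members, without Insr and Slc2a4.

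Library totals ran from 15605044 to 32492548 counts, and the least counted member, Pik3ip1, still had a median of 366 counts. Levels are CPM, read counts over the library total adjusted by TMM factors, which correct for differences in library composition. Some libraries stood apart. In 12 libraries of 7 groups the albumin gene Alb, made in liver, was above 16 CPM. RL14_ML replicate 1 lay far from its group in several members. A 5.8S ribosomal RNA gene, which the library kit should deplete, averaged 0.717 to 1.76 CPM in RL7_M, RL7_L, RL7_ML and RL14_W, against 4.75 to 24.4 CPM in the other 9 groups. The share of counts from mitochondrial genes was 5.53% to 11.7% in those same 4 groups and 11.2% to 29.2% elsewhere, so these measures move with the drink at 7 d and with plain water at 14 d. Muscle fibre genes gave 86528 to 97764 CPM in AMB_W as the sum of 8 markers, and none was at 0.

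**Figure D1:**
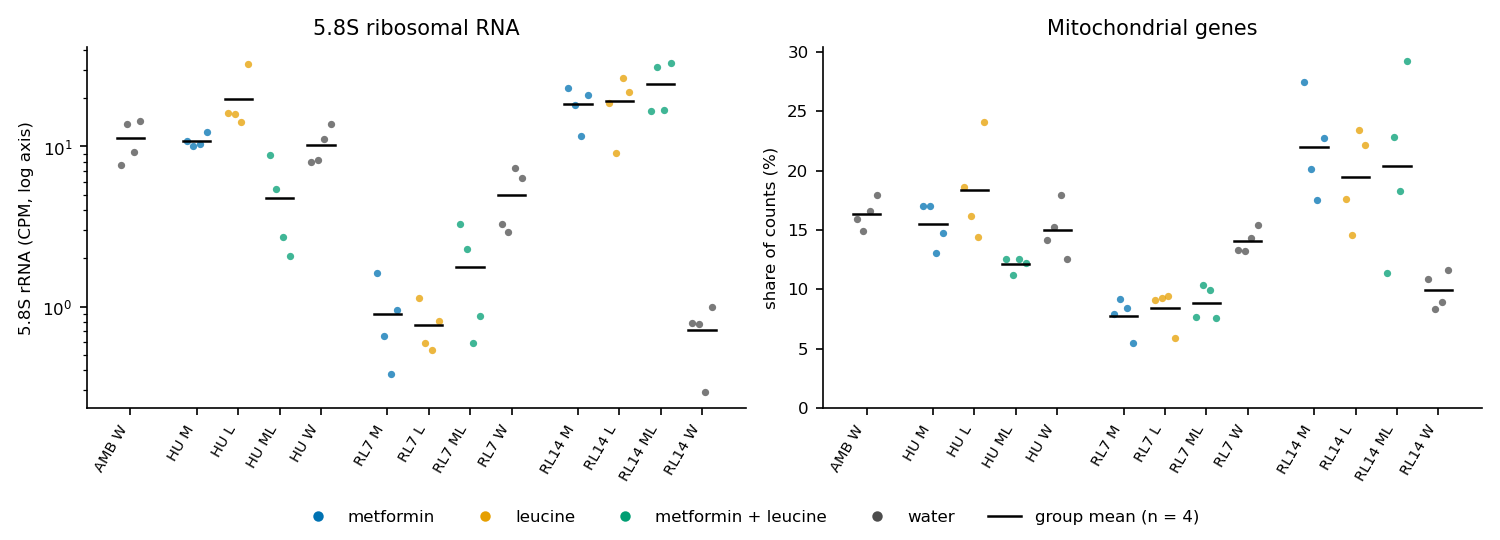
Each point is 1 library: left, CPM of the 5.8S ribosomal RNA gene on a log axis; right, the percent of counts from mitochondrial genes; lines are group means of 4 libraries. RL7_M, RL7_L, RL7_ML and RL14_W lie lowest in 5.8S RNA, with group means of 0.717 to 1.76 CPM, and RL7_M holds the library with the lowest mitochondrial share, 5.53%.

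Pik3r1 and Tbc1d1 rose with unloading and fell with reloading. Pik3r1 changed with edgeR in all 4 unloaded groups and all 8 reloading comparisons, and Tbc1d1 in 3 of the 4 and 5 of the 8. These comparisons share the unloaded libraries and are not independent. Pik3r1 was 1.81-fold higher in HU_W than in AMB_W and Tbc1d1 was 1.99-fold higher. Irs1 moved the other way in the mice given metformin or leucine, 1.45-fold lower in HU_M and 1.52-fold lower in HU_L. Pik3ip1, the inhibitor of PI3K, rose on reloading in 3 comparisons. With edgeR, Akt1, Akt2 and Tbc1d4 passed in none of their 36 tests each, Insr and Slc2a4 in 1 each after 7 d of reloading, and Irs2 in 1, between the drinks at 14 d.

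A gene counted as changed at a Benjamini-Hochberg adjusted p under 0.05 in edgeR's quasi-likelihood test, over the 16668 genes. The 4 unloaded groups share the 4 AMB_W libraries as controls, so their counts are not independent. Each unloaded group is also the reference at both 7 d and 14 d, so a member's rise and its falls rest on shared libraries. In HU_W against AMB_W, 2 members changed, both higher, against 2.78% of all genes. HU_M and HU_L against AMB_W each gave 3 members (2 higher and 1 lower), against 3.62% and 3.74% of genes, and HU_ML gave 1, higher, against 2.07%. After 7 d of reloading 2 members were lower in RL7_W than in HU_W (4.88% of genes changed), and 1 was lower in RL7_ML than in HU_ML (5.91%). RL7_M against HU_M gave 5 members (3 higher, 2 lower) and RL7_L against HU_L gave 5 (2 higher, 3 lower), but 29.6% and 28.6% of all genes changed there. After 14 d the members changed numbered 2 in RL14_W against HU_W (1 higher, 1 lower; 9.72% of genes), 2 in RL14_M against HU_M (both lower; 4.87%), 3 in RL14_L against HU_L (1 higher, 2 lower; 4.69%) and 1 in RL14_ML against HU_ML (lower; 4.3%). The median log2 fold change of the 10 members stayed between -0.07 and 0.19 in these 12 comparisons, near that of all genes (-0.01 to 0.07).

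**Figure D2:**
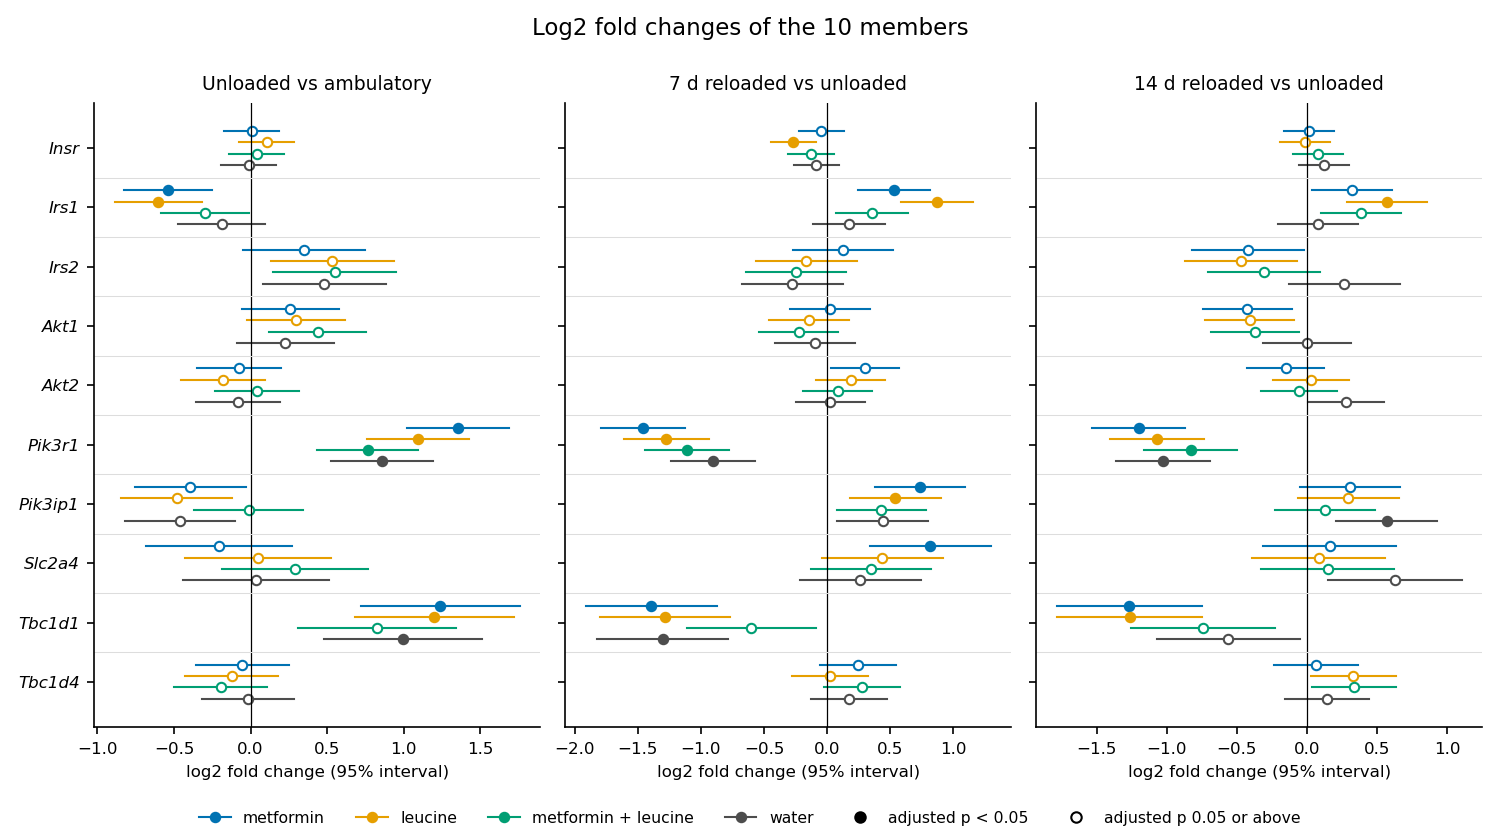
Log2 fold changes of the 10 members, unloaded over ambulatory and reloaded over unloaded mice on the same drink, with 95% intervals; filled points have an adjusted p under 0.05 (edgeR). Pik3r1 lies right of 0 in all 4 unloaded groups (0.77 to 1.35) and left of 0 in all 8 reloading comparisons (-1.46 to -0.83), while Insr and Akt2 stay close to 0.

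No member passed with edgeR between reloaded mice on water and ambulatory ones. RL7_W against AMB_W gave 0 members with edgeR, 0 at an unadjusted p under 0.05, and 0 with DESeq2 or limma voom. Of all genes there, edgeR called 0%, DESeq2 20 and limma voom 156, and 1341 had an unadjusted p under 0.05. RL14_W against AMB_W gave 0 members with edgeR (0.174% of genes), with 2 at an unadjusted p under 0.05, 1 with DESeq2 and 3 with limma voom. By these 3 measures 2990, 292 and 2959 of all genes passed. RL14_W against RL7_W gave 0 members with edgeR (0.036% of genes), with 3 at an unadjusted p under 0.05, 0 with DESeq2 and 4 with limma voom. Here 1905, 36 and 1324 of all genes passed by the same 3 measures.

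Between drinks at the same time, 1 member test passed. HU_M, HU_L and HU_ML against HU_W each gave 0 members with edgeR, DESeq2 and limma voom, and 2, 1 and 1 at an unadjusted p under 0.05, against 0%, 0.006% and 0.048% of genes changed. At 7 d, RL7_M, RL7_L and RL7_ML against RL7_W also gave 0 with each tool, and 2, 1 and 2 unadjusted, against 0.138%, 0.078% and 0.006% of genes. At 14 d, RL14_M against RL14_W gave 1 member, Irs2, lower, against 5.12% of genes (4 unadjusted, 3 with DESeq2, 4 with limma voom). RL14_L against RL14_W gave 0 members (0.294% of genes; 4 unadjusted, 0 with DESeq2, 3 with limma voom), and RL14_ML against RL14_W gave 0 (0.714%; 1 unadjusted, 0 with DESeq2, 4 with limma voom). Among all genes, 3917, 2784 and 1824 had an unadjusted p under 0.05 in RL14_M, RL14_L and RL14_ML against RL14_W. DESeq2 called 1341 of 12789, 188 of 14078 and 202 of 16017 in that order, and limma voom 3896, 1345 and 3021 of 16668. The combination gave 0 members with edgeR against each single drink: HU_ML against HU_M (0.15% of genes; 3 unadjusted, 1 with DESeq2, 0 with limma voom), HU_ML against HU_L (0.096%; 3 unadjusted), RL7_ML against RL7_M (0%; 0 unadjusted), RL7_ML against RL7_L (0%; 1 unadjusted), RL14_ML against RL14_M (0.024%; 2 unadjusted) and RL14_ML against RL14_L (0%; 0 unadjusted). In those last 5 comparisons DESeq2 and limma voom gave 0 as well. The change of a drink's effect from HU to RL7 or RL14 was tested by 6 interaction terms, none of which reached an edgeR call for a member. At RL7 the terms for M, L and ML had 1, 1 and 0 members at an unadjusted p under 0.05 and 0 with the other tools, where 0.03%, 0.066% and 0.012% of genes changed. At RL14 the terms for M, L and ML had 2, 2 and 1 members unadjusted, 0 with DESeq2 and 2, 0 and 4 with limma voom. Of all genes, edgeR called 0.024%, 0.006% and 0.96%, while limma voom called 881, 28 and 3083 of 16668. Genes at an unadjusted p under 0.05 numbered 1827, 1001 and 2091.

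Compared per exon length, as CPM divided by exon kilobases (RPKM) over all 52 libraries, Slc2a4 was the most abundant member at 42.8 ± 13.4 RPKM (SD), followed by Akt2 at 17.2 ± 2.64. Tbc1d1 averaged 12.7 ± 5.68 RPKM, Irs1 10.2 ± 2.02, Tbc1d4 10.1 ± 1.56, Insr 9.78 ± 0.879 and Pik3r1 7.58 ± 3.61. Akt1 and Irs2 came to 6.32 ± 1.14 and 6.31 ± 1.51, and Pik3ip1 was lowest at 4.38 ± 1.05. Spread around the mean was smallest for Insr and largest for Pik3r1 and Tbc1d1, whose coefficients of variation over the 52 libraries were 8.99%, 47.7% and 44.8%.

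The receptor gene Insr was the steadiest member, between 110.2 and 172 CPM in all libraries. Group means spanned 119 CPM in RL7_L to 145 CPM in RL14_ML, a ratio of 1.22, and neighbouring groups in the order of means overlapped throughout. Its 1 change was in RL7_L, with 118, 112, 138 and 110.2 CPM, against 136, 150.2, 150.0 and 138 CPM in HU_L. The groups overlap by 1 RL7_L library, and the log2 fold change was -0.27 ± 0.09 (SE; adjusted p = 0.0212). The call was lost without RL7_L replicate 5 (adjusted p = 0.0726), without the filter on low counts, without the 12 libraries with liver transcripts, and with 5.8S RNA as a covariate, where the log2 fold change was -0.40 ± 0.17 (0.511).

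Irs1, the adaptor through which the receptor reaches PI3K, was lowest in HU_L and HU_M. It measured 55.7, 68.5, 70.9 and 79.8 CPM in HU_M, 59.6, 78.1, 66.5 and 59.4 CPM in HU_L, 84.3, 58.9, 86.4 and 96 CPM in HU_ML and 83.5, 81.5, 77.1 and 109 CPM in HU_W, against 108, 97.9, 92.9 and 101 CPM in AMB_W. All 8 libraries of HU_M and HU_L lie below every AMB_W library, while HU_ML and HU_W overlap AMB_W. The log2 fold changes were -0.54 ± 0.14 in HU_M (adjusted p = 0.0191) and -0.60 ± 0.14 in HU_L (adjusted p = 0.00668). HU_L was also -0.41 ± 0.14 below HU_W, which did not pass (adjusted p = 1, edgeR), so the lower level is not shown to differ between the drinks. The HU_M call was lost without AMB_W replicate 2 (adjusted p = 0.0643), HU_M replicate 1 (0.0912) or HU_M replicate 3 (0.05002).

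After reloading Irs1 was higher in RL7_M, RL7_L and RL14_L than in the unloaded mice on the same drink. After 7 d it measured 97.4, 98.9, 91.7 and 109 CPM in RL7_M (against 68.7 ± 9.94 CPM in HU_M, SD, n = 4) and 142, 122, 94.6 and 123 CPM in RL7_L (against 65.9 ± 8.77 CPM in HU_L). Both reloaded groups lie wholly above their unloaded ones. The log2 fold changes were 0.53 ± 0.14 in RL7_M (adjusted p = 0.00437) and 0.87 ± 0.14 in RL7_L (adjusted p = 2.19e-05), and with 5.8S RNA as a covariate they were 0.45 ± 0.23 and 0.77 ± 0.27, neither of which passed (adjusted p = 0.476 and 0.329). After 14 d RL14_L stood at 97.8 ± 12.6 CPM, 0.57 ± 0.14 above HU_L on the log2 scale (adjusted p = 0.0104). That call was lost without HU_L replicate 5 (adjusted p = 0.0512), without RL14_L replicate 1 (0.0630) or without the 12 libraries with liver transcripts (0.0816). RL14_M, at 86.1 ± 6.47 CPM, was 0.32 ± 0.14 above HU_M and did not pass (adjusted p = 0.198).

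Irs2, the second adaptor, was counted at about the RPKM of Akt1 and had its lowest levels in AMB_W and RL14_M. Mean levels were 40.02 ± 10.6 CPM in HU_M, 45.5 ± 5.32 CPM in HU_L, 46 ± 5.86 CPM in HU_ML and 43.9 ± 11.6 CPM in HU_W, against 31.4 ± 5.63 CPM in AMB_W. HU_L and HU_ML do not overlap AMB_W, but no fold change passed with edgeR. These were 0.53 ± 0.20 in HU_L (adjusted p = 0.138) and 0.55 ± 0.20 in HU_ML (adjusted p = 0.145). Both passed with limma voom (0.0181 and 0.0179), in the fit of the compared groups alone (0.0130 and 0.0276) and without RL14_ML replicates 1 and 6 (0.0366 and 0.0348), but not with DESeq2. The per-length ratio of Irs1 to Irs2 within a library was 1.28 ± 0.461 in HU_M, 1.02 ± 0.232 in HU_L, 1.24 ± 0.302 in HU_ML and 1.45 ± 0.429 in HU_W, against 2.25 ± 0.417 in AMB_W. In the reloaded groups it lay between 1.22 ± 0.195 in RL14_W, as low as in the unloaded mice, and 2.23 ± 0.737 in RL14_ML. The ratio of these related genes is a description without a test.

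At 14 d of reloading Irs2 was lower with metformin than with plain water. It measured 29.2, 36.7, 27.7 and 26.1 CPM in RL14_M, against 52.7, 51.7, 55.6 and 51.5 CPM in RL14_W. No library overlaps, and the log2 fold change was -0.82 ± 0.20 (adjusted p = 0.0176). RL14_L lay as low, with 37.6, 32.2, 30.1 and 31.7 CPM, but its difference from RL14_W did not pass (-0.68 ± 0.20, adjusted p = 0.0990). RL14_ML had 3 low libraries at 28.4, 29.5 and 24.9 CPM and 1 high one, replicate 1, at 65.7 CPM. RL14_W was itself the highest of the 13 groups in Irs2, 0.75 ± 0.20 above AMB_W on the log2 scale without passing with edgeR (adjusted p = 0.0770). That difference passed with DESeq2 (0.0269), limma voom (0.000197), the fit of the compared groups alone (0.00116) and without RL14_ML replicates 1 and 6 (0.00241). It did not pass with 5.8S RNA as a covariate, where 0 of 16668 genes were called in RL14_W against AMB_W. The RL14_M call was lost without RL14_W replicate 3 (adjusted p = 0.0744), RL14_W replicate 4 (0.0772) or RL14_M replicate 6 (0.105), without the filter on low counts, and with 5.8S RNA as a covariate (-0.25 ± 0.37, adjusted p = 0.999). That RNA averaged 18.4 ± 5.00 CPM in RL14_M and 0.717 ± 0.299 CPM in RL14_W with no overlap. Its part in the Irs2 difference cannot be told apart from that of the drink.

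Pik3r1, encoding the p85 alpha subunit that brings PI3K to the adaptors, gave the clearest pattern. It measured 136, 129, 112 and 229 CPM in HU_M, 109, 139.9, 122 and 136 CPM in HU_L, 94.1, 127, 91.8 and 89.8 CPM in HU_ML and 84.7, 96.9, 109.6 and 139 CPM in HU_W, against 49.6, 58.1, 66.8 and 62.7 CPM in AMB_W. The lowest unloaded library, at 84.7 CPM, lies above the highest of all 36 other libraries, at 76.4 CPM. Log2 fold changes over AMB_W were 1.35 ± 0.17 in HU_M (adjusted p = 3.19e-07), 1.10 ± 0.16 in HU_L (1.70e-05), 0.77 ± 0.16 in HU_ML (0.00624) and 0.86 ± 0.16 in HU_W (0.000909). HU_M was also 0.50 ± 0.16 above HU_W and HU_ML was -0.59 ± 0.16 below HU_M, but neither passed (adjusted p = 0.914 and 0.131). The HU_ML call rests on replicate 4, at 127 CPM, without which the adjusted p was 0.0876, and was also lost without the 12 libraries with liver transcripts (0.0834).

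On reloading Pik3r1 fell in all 8 comparisons. At 7 d it averaged 55.1 ± 12.9 CPM in RL7_M, 52.4 ± 5.42 CPM in RL7_L, 46.7 ± 4.91 CPM in RL7_ML and 57.3 ± 4.20 CPM in RL7_W. Against the unloaded group on the same drink the log2 fold change was -1.46 ± 0.17 in RL7_M (adjusted p = 3.63e-08), -1.27 ± 0.17 in RL7_L (3.18e-07), -1.11 ± 0.17 in RL7_ML (3.18e-05) and -0.91 ± 0.16 in RL7_W (0.000329). At 14 d it averaged 65.9 ± 8.25 CPM in RL14_M, 60.3 ± 10.7 CPM in RL14_L, 56.7 ± 8.34 CPM in RL14_ML and 52.7 ± 1.35 CPM in RL14_W. Against the unloaded groups this was -1.2 ± 0.16 on the log2 scale in RL14_M (adjusted p = 4.16e-06), -1.07 ± 0.16 in RL14_L (2.22e-05), -0.83 ± 0.16 in RL14_ML (0.00123) and -1.03 ± 0.16 in RL14_W (5.39e-05). No reloaded library overlaps an unloaded one. With 5.8S RNA as a covariate the RL7_L and RL14_W fold changes were -0.90 ± 0.31 and -0.72 ± 0.27 and their calls were lost (adjusted p = 0.315 and 0.725), and in a fit of the compared groups alone the RL14_ML call was lost (0.212). The fall in RL7_W passed in all 17 alternatives; 5.8S RNA averaged 4.98 ± 2.22 CPM in RL7_W and 10.3 ± 2.76 CPM in HU_W.

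**Figure D3:**
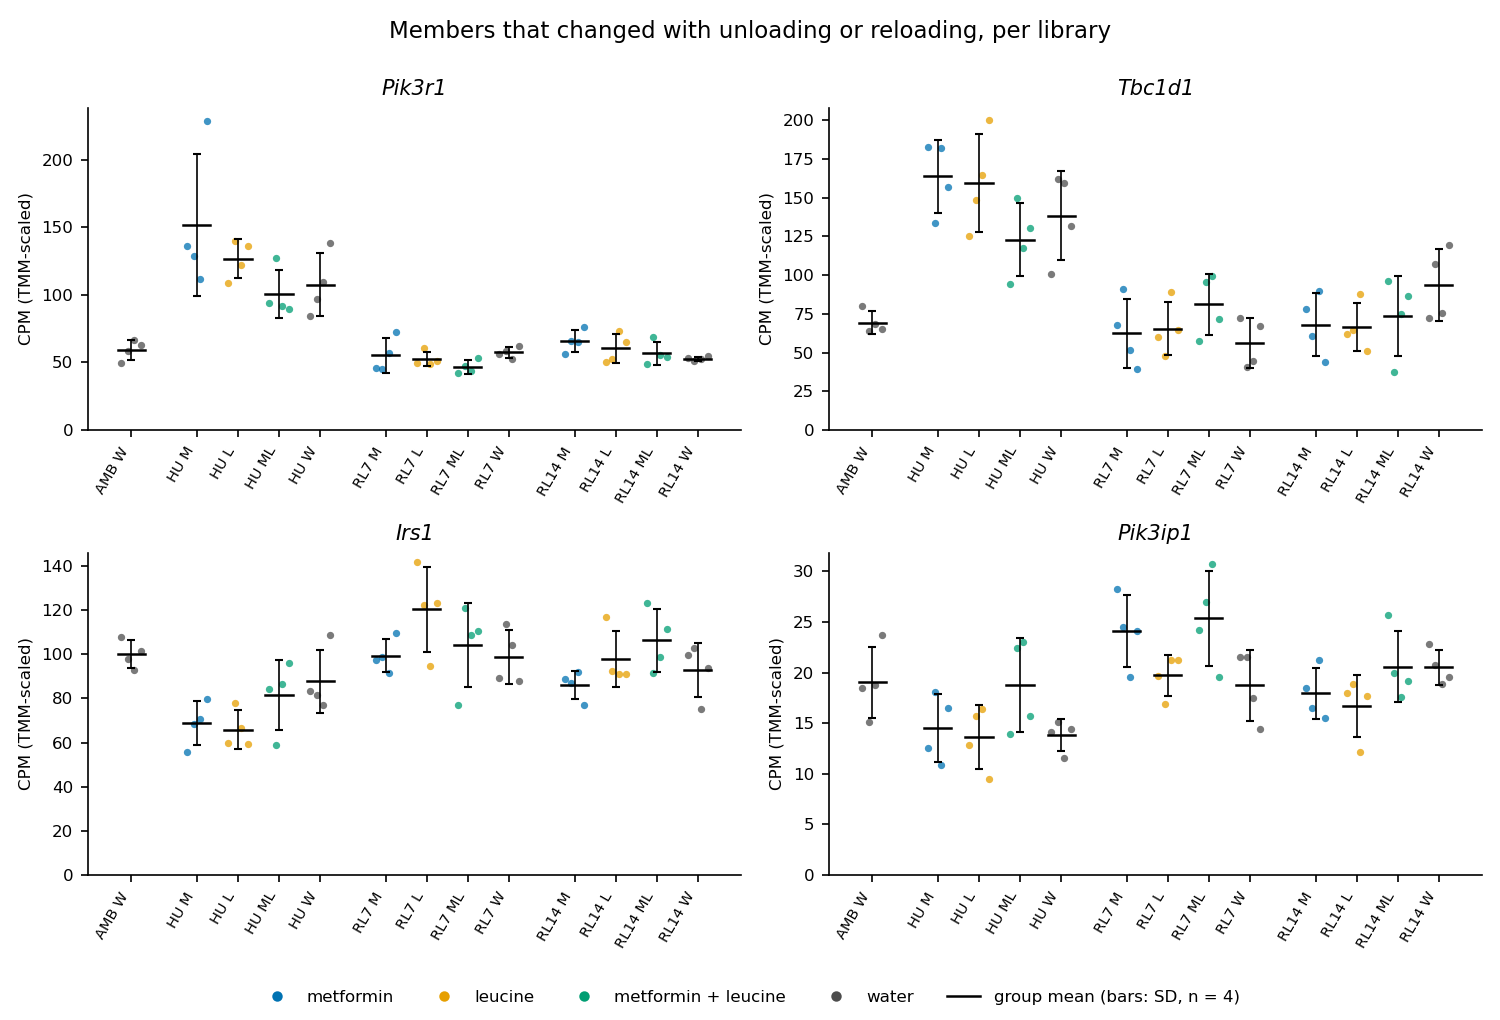
CPM per library of Pik3r1, Tbc1d1, Irs1 and Pik3ip1 in the 13 groups; points are libraries coloured by drink, lines are means and bars are SD (n = 4). In Pik3r1 the 16 unloaded libraries (84.7 to 229 CPM) lie above the other 36, and in Tbc1d1 the unloaded libraries (94.1 to 199.9 CPM) lie above all ambulatory ones (63.8 to 80.0 CPM).

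Pik3ip1 ran opposite to Pik3r1. It averaged 14.5 ± 3.37 CPM in HU_M, 13.6 ± 3.17 CPM in HU_L, 18.8 ± 4.63 CPM in HU_ML and 13.8 ± 1.57 CPM in HU_W, against 19 ± 3.54 CPM in AMB_W, without a call. RL7_M had 28.3, 24.5, 19.6 and 24.1 CPM, against 12.5, 18.1, 10.9 and 16.5 CPM in HU_M, with no overlap and a log2 fold change of 0.74 ± 0.18 (adjusted p = 0.00197). RL7_L had 19.6, 16.9, 21.2 and 21.2 CPM, against 12.9, 15.7, 16.4 and 9.44 CPM in HU_L, again with no overlap (0.54 ± 0.18, adjusted p = 0.0208). RL14_W had 22.8, 20.8, 18.9 and 19.6 CPM, against 14.2, 15.1, 11.5 and 14.4 CPM in HU_W, which do not overlap either (0.57 ± 0.18, adjusted p = 0.0354). With 5.8S RNA as a covariate the fold changes in RL7_M, RL7_L and RL14_W were 0.42 ± 0.28, 0.14 ± 0.33 and 0.24 ± 0.29, and the calls were lost (adjusted p = 0.593, 0.964 and 0.999). The RL7_L call was also lost without HU_L replicate 5 (0.124) or RL7_L replicate 5 (0.0611), and the RL14_W call was kept in 1 of 8 fits that leave out a library, the fit without RL14_W replicate 5 (adjusted p 0.0425 to 0.126). Without the 12 libraries with liver transcripts both were lost, and the RL14_W call also without the filter on low counts.

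Akt1 and Akt2, the kinases downstream of PI3K, of which AKT2 is the form mainly tied to glucose uptake, passed in no comparison with edgeR. Akt1 group means spanned 20.6 CPM in RL14_M to 31.3 CPM in HU_ML. It was higher in HU_ML than in AMB_W by 0.44 ± 0.16 on the log2 scale without passing (adjusted p = 0.139), and passed without HU_ML replicate 6 (0.0394). Akt2 group means spanned 105 CPM in RL14_M to 144 CPM in RL7_M. RL14_M had 108, 103, 117 and 93.5 CPM of Akt2, against 122, 158, 157 and 129 CPM in RL14_W. These do not overlap, and the log2 fold change of -0.43 ± 0.13 just missed with edgeR (adjusted p = 0.0516), but passed with DESeq2 (0.0376), limma voom (9.41e-05) and the fit of the compared groups alone (0.0285). No gene, Akt2 included, passed here with 5.8S RNA as a covariate (0 of 16668). With limma voom, Akt2 was also called in RL14_W against HU_W, AMB_W and RL7_W (higher) and in RL14_L and RL14_ML against RL14_W (lower). Akt1 was called with limma voom in HU_ML against AMB_W (higher), and in RL14_L against HU_L, RL14_ML against HU_ML, and RL14_M and RL14_ML against RL14_W (lower). Per exon length Akt2 exceeded Akt1 within each library, with group means of the ratio from 2.23 in HU_L to 3.08 in AMB_W.

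Tbc1d1 rose with unloading nearly as Pik3r1 did. It measured 183, 133, 182 and 157 CPM in HU_M, 125, 148, 165 and 199.9 CPM in HU_L, 94.1, 149.8, 117 and 131 CPM in HU_ML and 101, 162, 159.7 and 131 CPM in HU_W, against 80.0, 63.8, 68.5 and 65.3 CPM in AMB_W. No unloaded library reaches down to an ambulatory one. Log2 fold changes were 1.24 ± 0.26 in HU_M (adjusted p = 0.00201), 1.2 ± 0.26 in HU_L (0.00256) and 1.00 ± 0.25 in HU_W (0.0189), and 0.83 ± 0.25 in HU_ML did not pass with edgeR (0.0781). The HU_ML rise passed with DESeq2 (0.0358), limma voom (0.0328) and the fit of the compared groups alone (0.00522). The HU_W call was lost in 5 of 8 fits that leave out a library (AMB_W replicates 3, 4 and 5, and HU_W replicates 2 and 3, adjusted p up to 0.0742), without the filter on low counts, and without the 12 libraries with liver transcripts (highest adjusted p over the 9 other settings, 0.0569).

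After 7 d of reloading Tbc1d1 averaged 62.4 ± 22.4 CPM in RL7_M, 65.4 ± 17.3 CPM in RL7_L, 81.1 ± 19.8 CPM in RL7_ML and 56.1 ± 15.9 CPM in RL7_W. It fell in RL7_M by 1.39 ± 0.26 on the log2 scale against HU_M (adjusted p = 0.000133), in RL7_L by 1.28 ± 0.26 against HU_L (0.000345) and in RL7_W by 1.3 ± 0.26 against HU_W (0.00104). The lower level in RL7_ML, against 123 ± 23.4 CPM in HU_ML, did not pass with edgeR, DESeq2 or limma voom. With 5.8S RNA as a covariate the RL7_M and RL7_L fold changes were larger, at -1.59 ± 0.42 and -1.53 ± 0.49, with larger errors, and did not pass (0.089 and 0.258), and the RL7_L call also without the 12 libraries with liver transcripts. After 14 d it fell in RL14_M by 1.27 ± 0.26 against HU_M (0.00140) and in RL14_L by 1.26 ± 0.26 against HU_L (0.00124). RL14_ML, at 73.7 ± 25.7 CPM, was -0.74 ± 0.25 against HU_ML and did not pass (0.0861). RL14_W, at 93.7 ± 23.3 CPM against 138 ± 28.8 CPM in HU_W, did not pass with edgeR either. RL14_W was 0.74 ± 0.25 above RL7_W (adjusted p = 0.307). The RL14_ML fall passed without RL14_ML replicate 1 (0.0360) and without replicates 1 and 6 (0.0347). With limma voom RL14_W was lower than HU_W (-0.63 ± 0.22, adjusted p = 0.0255) and higher than RL7_W (0.0351).

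Tbc1d4, the closest relative of Tbc1d1 among the members and the main AKT target of the pair, did not follow it. Its group means spanned 65.7 CPM in HU_ML to 86.9 CPM in RL14_L, with no call in 36 tests. The per-length ratio of Tbc1d1 to Tbc1d4 within a library was 2.55 ± 1.02 in HU_M, 2.46 ± 0.799 in HU_L, 2.01 ± 0.689 in HU_ML and 2.00 ± 0.641 in HU_W, against 0.973 ± 0.204 in AMB_W. In the reloaded groups it lay between 0.709 ± 0.260 in RL7_W and 1.2 ± 0.337 in RL14_W. These ratios are given as a description.

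Slc2a4, encoding GLUT4 itself, passed in no unloaded group, with 105 ± 15.2 CPM in HU_M, 126 ± 28.8 CPM in HU_L, 149 ± 27 CPM in HU_ML and 125 ± 20.4 CPM in HU_W, against 122 ± 8.75 CPM in AMB_W. It rose in RL7_M, which had 194, 181, 199.6 and 168 CPM, against 125, 104, 87.9 and 105 CPM in HU_M. These groups do not overlap (log2 fold change 0.82 ± 0.24, adjusted p = 0.00832), and the call was lost with 5.8S RNA as a covariate (0.41 ± 0.38, adjusted p = 0.716). All RL7 libraries lay at 132 CPM or above, and so did those of RL14_W (207, 189, 214 and 162 CPM). RL14_M had 129, 127, 110.0 and 106 CPM, below every RL14_W library, at a log2 fold change of -0.71 ± 0.24 that did not pass with edgeR (adjusted p = 0.0616). It passed with DESeq2 (0.0378), limma voom (8.97e-05), the fit of the compared groups alone (0.00197) and without RL14_ML replicates 1 and 6 (0.000558). RL14_W stood 0.67 ± 0.24 above AMB_W without passing with edgeR (adjusted p = 0.146), while limma voom (0.000149), the fit of the compared groups alone (0.00116) and the fit without those 2 RL14_ML libraries (0.00242) called it. Neither of these differences passed with 5.8S RNA as a covariate, where 0 of 16668 genes were called in RL14_M against RL14_W and in RL14_W against AMB_W.

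RL14_ML replicate 1 decided what this group showed. It had the highest Slc2a4 (364 CPM), Irs2 (65.7 CPM), Akt2 (188 CPM) and Insr (172 CPM) of all 52 libraries, while the other 3 RL14_ML libraries had 113, 104 and 80.6 CPM of Slc2a4. With all 4 libraries RL14_ML against RL14_W gave log2 fold changes of -0.51 for Irs2, -0.16 for Akt1, -0.21 for Akt2 and -0.22 for Slc2a4, none of which passed (adjusted p = 0.288, 0.758, 0.594 and 0.774). Without replicate 1 they were -0.93, -0.44, -0.49 and -0.96, and all 4 passed (adjusted p = 0.000169, 0.0288, 0.00174 and 4.18e-05). Over the fits leaving out 1 library, the genes called in this comparison ran from 29 to 2500, against 119 with all libraries. The other 3 RL14_ML libraries moved the same way as RL14_M and RL14_L against RL14_W, and the low 5.8S RNA of RL14_W stands beside each of these differences. With 5.8S RNA as a covariate, the log2 fold changes of Irs2, Akt1, Akt2 and Slc2a4 over all 4 libraries were 0.094, 0.17, -0.066 and 0.31, without a call, and the RNA and the drink cannot be told apart at 14 d.

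**Figure D4:**
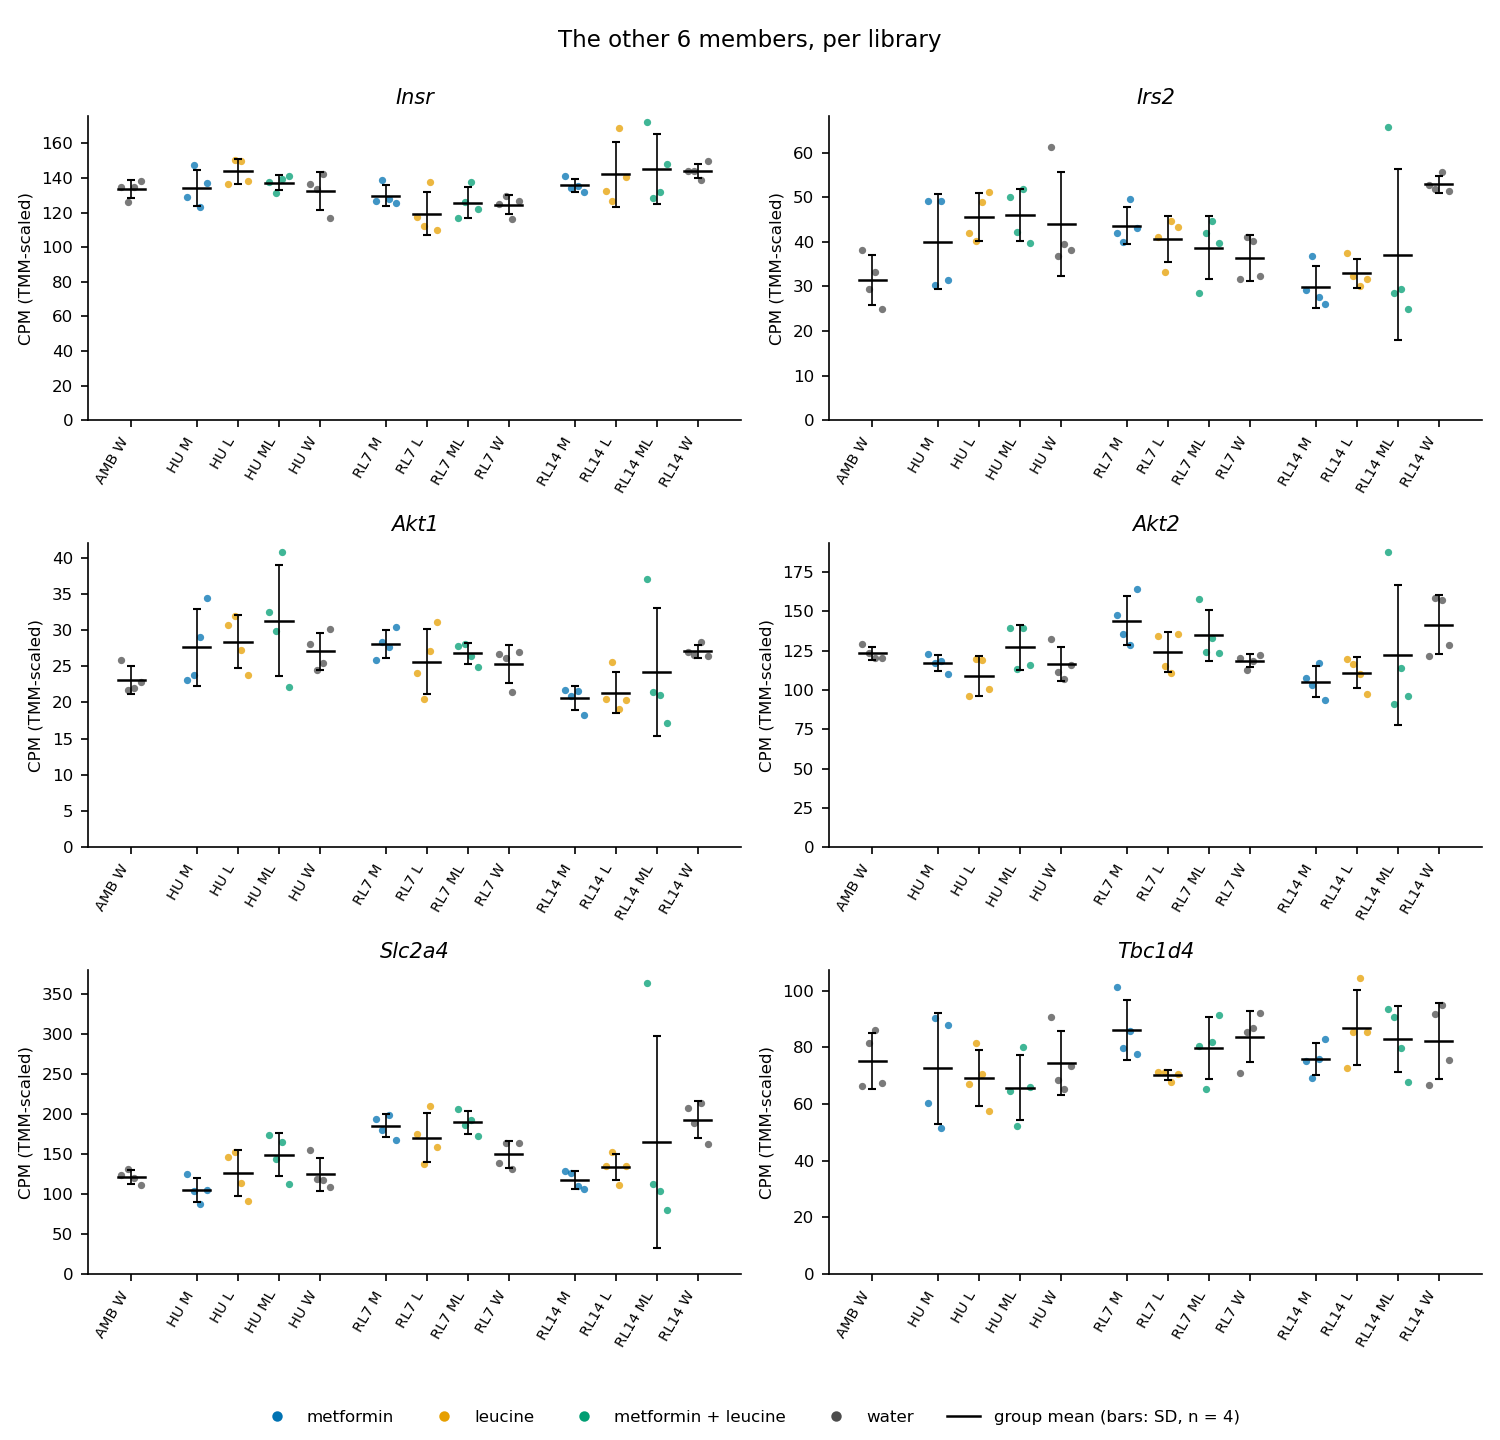
CPM per library of Insr, Irs2, Akt1, Akt2, Slc2a4 and Tbc1d4, drawn as for the members that changed (lines are means, bars SD, n = 4). RL14_ML replicate 1 stands apart in Slc2a4 (364 CPM) and Irs2 (65.7 CPM), and Irs2 in RL14_W (51.5 to 55.6 CPM) lies above RL14_M (26.1 to 36.7 CPM).

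Over the 13 group means of log2 CPM, Pik3r1 and Tbc1d1 went together (Pearson r = 0.894), Irs1 ran against both (-0.894 and -0.833) and Pik3ip1 against Pik3r1 (-0.845). Irs2 went with Akt1 (0.854) and Akt2 with Slc2a4 (0.818). These are descriptions over 13 points that share the same libraries and scaling. Among 10355 genes ranked by the same measure, the patterns most like Pik3r1 were those of Arrdc3 (r = 0.985), Lrrc58 (0.982) and Pld1 (0.98). Most like Tbc1d1 were Bach1 (0.98), Tcp11l2 (0.976) and Hif3a (0.969). Most like Irs1 were Ky (0.953), Prr29 (0.945) and Cxxc5 (0.943), and most like Pik3ip1 were Znhit1 (0.971), Slc39a13 (0.956) and Slc35c2 (0.954).

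Other genes of the pathway, from lists chosen with earlier results of these data known, moved in a few places. In HU_W against AMB_W, 2 of 15 receptor and adaptor genes rose: Cblb, a ubiquitin ligase that acts on signalling adaptors (71.8 ± 3.67 against 47.5 ± 1.97 CPM, log2 fold change 0.60 ± 0.15, adjusted p = 0.0182), and Ptpn1, the phosphatase that takes phosphate off the receptor (0.71 ± 0.15, adjusted p = 0.00395). Of 11 brakes on PI3K and AKT, Inpp5k, a lipid phosphatase, rose (0.40 ± 0.09, adjusted p = 0.00745) and Trib2, a pseudokinase, fell (-0.64 ± 0.13, adjusted p = 0.00186). Of 10 AKT substrates 2 rose: the transcription factor Foxo1, at 163 ± 32.3 CPM in HU_W against 37.2 ± 2.84 CPM in AMB_W (2.13 ± 0.21, adjusted p = 2.79e-09), and Foxo3 (0.54 ± 0.13, adjusted p = 0.0118). Klf15, 1 of 7 tested genes tied to GLUT4 transcription, rose (0.78 ± 0.20, adjusted p = 0.0188). None of 11 PI3K, PDK1 and mTORC2 genes, 21 genes of GLUT4 vesicle traffic and 8 tested glucose carriers and hexokinases passed. Of all genes, 2.78% changed in this comparison. The list medians lay between -0.12 and 0.14, against -0.01 for all genes. The Foxo1 call held in all 17 alternatives, and the other 6 were lost in 1 to 6 of them.

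After 7 d of reloading on water several of these turned back. In RL7_W against HU_W, Cblb and Ptpn1 fell (-0.52 ± 0.15 and -0.53 ± 0.15, adjusted p = 0.0336 and 0.0339), as did Inpp5k (-0.37 ± 0.09, adjusted p = 0.0128). Foxo1 fell to 29.7 ± 5.95 CPM in RL7_W, against 163 ± 32.3 CPM in HU_W (-2.45 ± 0.21, adjusted p = 8.28e-11), and Foxo3 fell by 0.68 ± 0.13 on the log2 scale (adjusted p = 0.000635). Hdac4, a repressor of MEF2 factors, fell (-0.66 ± 0.18, adjusted p = 0.0204). Rising genes were Trib2 (0.83 ± 0.13, adjusted p = 3.91e-05), the PI3K catalytic subunit gene Pik3cd (0.96 ± 0.25, adjusted p = 0.0179) and Exoc7 of the exocyst (0.50 ± 0.15, adjusted p = 0.0387). By list this was 2 of 15 receptor and adaptor genes lower, 1 of 11 PI3K genes higher, 1 higher and 1 lower of 11 brakes, 2 of 10 AKT substrates lower, 1 of 21 vesicle genes higher, 1 of 7 GLUT4 transcription genes lower and 0 of 8 carriers, with list medians from -0.40 to 0.21 against 0.03 for all genes. Of all genes, 4.88% changed there. Foxo1, Foxo3 and Trib2 held in all 17 alternatives, and the other 6 calls were lost in 2 to 9 of them.

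In RL14_W against HU_W, Foxo1 was again lower (36.8 ± 2.59 CPM in RL14_W, log2 fold change -2.14 ± 0.21, adjusted p = 1.34e-09), as were Cblb (-0.51 ± 0.15, adjusted p = 0.0295) and Inpp5k (-0.28 ± 0.09, 0.0448). Higher were Trib2 (0.98 ± 0.13, adjusted p = 1.64e-06), Pik3cd (1.04 ± 0.25, 0.00809), Pik3r2, which encodes another regulatory subunit of PI3K (0.57 ± 0.18, 0.0392), the lipid phosphatase gene Inppl1 (0.67 ± 0.19, 0.0225), Bad (0.97 ± 0.25, 0.0114), Exoc7 (0.53 ± 0.15, 0.0194) and the glucose carrier Slc2a12 (0.42 ± 0.12, 0.0243). By list this was 2 of 11 PI3K genes higher, 2 higher and 1 lower of 11 brakes, 1 higher and 1 lower of 10 AKT substrates, 1 of 21 vesicle genes higher and 1 of 8 carriers higher, with 0 of 7 GLUT4 transcription genes. Of all genes, 9.72% changed there, so 1 change in a list of this length lies near that share. With 5.8S RNA as a covariate, Foxo1 alone of these 10 genes kept its call. Over the 17 alternatives Foxo1 was called in all 17, Inpp5k in 5, Pik3r2 in 7, Slc2a12 in 9, Inppl1 and Exoc7 in 11 each, and the other 4 in 12 to 16.

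Markers of other cells moved with unloading and reloading too. The counts below stand beside the share of all genes changed in the same comparison. This was 2.78% in HU_W against AMB_W, 4.88% in RL7_W against HU_W and 9.72% in RL14_W against HU_W. It was 29.6% in RL7_M against HU_M and 28.6% in RL7_L against HU_L. Erythroid genes (Hba-a1, Hba-a2, Hbb-bs, Hbb-bt and Alas2) summed to 26 to 57.4 CPM in HU_W, against 2.7 to 5.98 CPM in AMB_W, and 4 of 5 were higher in HU_W than in AMB_W. In RL14_W they summed to 2.59 to 4.34 CPM, and 5 of 5 were lower than in HU_W. Fibroblast and progenitor genes gave 2 of 6 lower in HU_W than in AMB_W, and summed to 421 to 480.4 CPM in HU_W, against 385 to 549 CPM in AMB_W. Endothelial genes gave 2 of 7 higher in RL7_W than in HU_W. Adipocyte genes, of interest because fat also carries Slc2a4, Irs2 and Akt2, gave 6 of 7 higher in RL7_M than in HU_M, and summed to 1249 to 1979 CPM in RL7_M, against 1220 to 1803 CPM in HU_M, a sum that includes Car3, which muscle also expresses. RL7_M replicate 4 stood out among them, with a mean marker level of 6.66 on the log2 CPM scale, against 2.46 to 3.27 in the other 3 RL7_M libraries and 1.22 to 2.90 in HU_M. All 5 member calls of RL7_M against HU_M held without it. This shows that they do not rest on that library, and does not test the part of adipocytes. Endothelial genes also gave 5 of 7 higher in RL7_M than in HU_M (sums of 179.8 to 300.3 CPM against 149.5 to 175 CPM), fibroblast and progenitor genes 3 of 6 higher and 1 lower, and erythroid genes 5 of 5 lower. In RL7_L against HU_L, 6 of 7 macrophage genes were higher (sums of 26.2 to 137 CPM against 18.6 to 37.5 CPM), as were 5 of 6 fibroblast and progenitor genes (368 to 652 CPM against 247 to 389 CPM), 4 of 7 adipocyte genes (1152 to 2659 CPM against 1272 to 1638 CPM) and 3 of 7 endothelial genes. RL7_L replicate 5 had a mean macrophage marker level of 4.17 on the log2 CPM scale, against 1.62 to 2.42 in the other 3 RL7_L libraries. Without this library the Insr and Pik3ip1 calls of RL7_L against HU_L were lost. The part of these other cells, adipocytes included, in the members' changes was not tested, and in bulk tissue a shift in cell numbers and a shift in RNA per cell cannot be told apart.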

How the data were processed

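The authors deposited 1 table of raw counts per Ensembl gene for 52 libraries of 13 groups, with 4 libraries each, and no normalization. Per the submitters' processing notes, STAR 2.7.3a, featureCounts 1.6.3 and the GRCm38 build were used; per the labels, libraries were stranded and depleted of ribosomal RNA. For the counting, annotation release and strand setting are not given in the sources used here. Labels do not say that each library came from a separate mouse, so p-values measure the spread between these libraries.

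Symbols and positions came from GENCODE vM21, which matched 55227 of 55487 identifiers. The filter was filterByExpr at 10 counts. A robust quasi-likelihood model of edgeR 4.0.16 in R 4.3.3, with TMM factors and 1 mean for each group, was fitted to all libraries (39 residual degrees of freedom). It gave 30 comparisons and 6 interaction terms, adjusted by Benjamini-Hochberg over 16668 genes. SE values come from the F statistic. Alternatives were RLE factors, no filter, DESeq2 1.42.0, limma 3.58.1 voom with quality weights, a fit of the compared groups alone, the replicate number as a block, and leaving out each library; 3 others were chosen after seeing the data. Steps were tested on simulated data. Chi-square values between the counts of the 78 replicate pairs were at least 7.47 per degree of freedom, so every library was taken as distinct. Named pathway genes are the 2 rising and 2 falling genes of a list with the smallest p. The rule's result for 1 of them is not reported here. The members and lists were chosen with earlier results of these data known.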

Additional observations from a re-analysis of the deposited data

Results flagged for a closer look

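In each group of 4 libraries, the library farthest from the others was compared with Dixon's 95% critical value. Over 130 groups of values chance alone flags about 6.5, and 8 were found. Slc2a4 in RL14_ML replicate 1 was 364 CPM, against 80.6 to 113 CPM in the other 3 libraries of that group, and Irs2 in the same library was 65.7 CPM, against 24.9 to 29.5 CPM. Irs2 in HU_W replicate 1 was 61.3 CPM, against 36.7 to 39.6 CPM. Pik3r1 in HU_ML replicate 4 was 127 CPM, against 89.8 to 94.1 CPM, and Pik3r1 in RL7_L replicate 2 was 60.4 CPM, against 49 to 50.7 CPM. Irs1 in RL14_L replicate 1 was 117 CPM, against 90.9 to 92.4 CPM. Insr in RL7_M replicate 2 was 139 CPM, against 126 to 128 CPM. Akt1 in RL7_W replicate 3 was the 1 library below its group, at 21.5 CPM, against 26.2 to 27 CPM. No interaction term passed for a member with edgeR.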

How the results depend on the processing

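Of 527 alternative values for the 31 member calls, 479 kept direction and call, 48 kept direction and lost the call, and 0 changed sign. For the 27 calls of other pathway genes, 344 of 459 values kept the call, 115 lost it and 0 changed sign. RLE factors moved no member's log2 fold change by more than 0.0329. Counts of members changed that moved by over 1.5 times, by setting, were as follows; where no value or construction shows a cause, the cause was not tested. Without the filter on low counts, HU_W against AMB_W and RL14_W against HU_W gave 1 (2 with the filter), and RL14_M against RL14_W gave 0 (1). With DESeq2, HU_ML against AMB_W gave 2 (1), RL14_W against AMB_W 1 (0), RL14_M against RL14_W 3 (1) and HU_ML against HU_M 1 (0). With limma voom, the count was 4 in HU_ML against AMB_W (1), 3 in RL7_ML against HU_ML (1), 5 in RL14_W against HU_W (2), 4 in RL14_ML against HU_ML (1), 3 in RL14_W against AMB_W (0), 4 in RL14_W against RL7_W (0), 4 in RL14_M against RL14_W (1), 3 in RL14_L against RL14_W (0), 4 in RL14_ML against RL14_W (0), and 2 and 4 in the RL14 interaction terms for M and ML (0). In a fit of the compared groups alone, it was 3 in HU_ML against AMB_W (1), 0 in RL14_ML against HU_ML (1), 2 in RL14_W against AMB_W (0), 1 in RL14_W against RL7_W (0), 5 in RL14_M against RL14_W (1) and 1 in RL14_L against RL14_W (0). In order, all genes called in this fit numbered 612 (345), 0 (717), 2029 (29), 390 (6), 2188 (853) and 234 (49). The limma voom counts above stood beside 1310 (345), 2758 (985), 4467 (1620), 1492 (717), 2959 (29) and 1324 (6) of all genes. Next in that order came 3896 (853), 1345 (49), 3021 (119), 881 (4) and 3083 (160). Those of DESeq2 stood beside 533 (345), 292 (29), 1341 (853) and 102 (25).

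The next 3 settings were chosen after seeing the data. Without the 12 libraries with liver transcripts, which leaves fewer libraries, HU_W against AMB_W gave 1 (2), HU_ML against AMB_W 0 (1), RL7_L against HU_L 2 (5) and RL14_W against HU_W 1 (2). Without RL14_ML replicates 1 and 6, HU_ML against AMB_W gave 3 (1), RL14_ML against HU_ML 4 (1), RL14_W against AMB_W 2 (0), RL14_M against RL14_W 4 (1), RL14_L against RL14_W 3 (0), RL14_ML against RL14_W 3 (0) and its interaction term 3 (0). In the same order, all genes called in this setting numbered 682 (345), 717 (717), 1409 (29), 2292 (853), 1112 (49), 1176 (119) and 1453 (160). With 5.8S RNA as a covariate, RL7_M against HU_M gave 1 (5), RL7_L against HU_L 0 (5), RL14_W against HU_W 0 (2) and RL14_M against RL14_W 0 (1). The covariate is a measured level whose values do not overlap between the compared groups, so it and the group difference cannot be told apart. Under it Irs2, Akt1 and Slc2a4 turned to 0.094, 0.17 and 0.31 (log2) in RL14_ML against RL14_W, and with single libraries left out Slc2a4 there ran from -0.96 to 0.0023 (without RL14_ML replicate 6); none of these positive values was a call.

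Leaving out 1 library at a time gave 1 to 2 members in HU_W against AMB_W, 0 to 2 in HU_ML against AMB_W, 3 to 5 in RL7_L against HU_L, 1 to 2 in RL14_W against HU_W, 1 to 6 in RL14_ML against HU_ML, 0 to 2 in RL14_M against RL14_W, 0 to 4 in RL14_ML against RL14_W and 0 to 4 in the ML term at RL14. All genes called in these fits ran from 313 to 1459 in RL14_ML against HU_ML, 29 to 2500 in RL14_ML against RL14_W and 54 to 2531 in that ML term. Replicate numbers did not pair the libraries throughout: deviations of same-numbered libraries correlated between -0.289 and 0.390. Pairing within single comparisons is not excluded. The range was 0.0847 to 0.176 in RL14_L against HU_L, 0.117 to 0.204 in RL14_ML against RL14_L and -0.159 to -0.0702 in RL7_M against RL7_W. With the replicate block, HU_ML against HU_M gave 1 member (0), and no other count moved by over 1.5 times.

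Counts of all genes changed moved more. Over the other settings they ran from 123 to 1362 in HU_W against AMB_W (464), 47 to 5894 in RL7_M against HU_M (4930), 47 to 5851 in RL7_L against HU_L (4771), 248 to 2743 in RL7_W against HU_W (813), 24 to 4467 in RL14_W against HU_W (1620), 0 to 1492 in RL14_ML against HU_ML (717), 0 to 3896 in RL14_M against RL14_W (853) and 0 to 3021 in RL14_ML against RL14_W (119). The fewest followed from 5.8S RNA as a covariate in 5 of these and the most from limma voom in 7. With 4 libraries a group, small differences of a member remain undetectable.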
